A study of Rattus norvegicus with 2 samples.

Results

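Chemokines are small secreted proteins that direct the movement of leukocytes, and their receptors are G protein-coupled receptors on the cells that respond. The chemokine and chemokine receptor genes were taken by name from a table of kidney messenger RNA as every row whose symbol begins with Ccl, Ccr, Cxcl, Cxcr, Cx3cl, Cx3cr, Xcl or Xcr and a digit. This gave 50 of 29516 gene rows, 32 ligands and 18 receptors. The kidneys came from F344 rats, an inbred strain prone to chronic kidney disease in old age, which were 20 months old and had eaten either a diet with 14% soy or a casein control diet for 4 months, from 16 months of age. The labels give 1 library per diet, so no difference below has a replicate check, no test was run and no error can be given. The labels state neither the sex of the rats, nor the part of the kidney, nor whether a library pooled several animals.

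Chemokine ligands fall into structural classes, CC, CXC, CX3C and XC, and most bind receptors of the same class. Inflammatory members are induced in injured tubular cells, endothelium and arriving leukocytes, and draw monocytes, neutrophils and effector T cells. Homeostatic members such as Ccl19, Ccl21 and Cxcl13 position lymphocytes and dendritic cells in lymphoid tissue, and they are also known from lymphoid aggregates in chronically inflamed organs. Receptor transcripts come mostly from the leukocytes themselves, with exceptions such as Cxcr7, an atypical receptor that takes up Cxcl12.

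Values are FPKM, fragments scaled to transcript length and to mapped fragments, so levels can be set beside each other between genes. A fold is the ratio of the FPKM values, and a log2 value is log2((soy + 0.1)/(casein + 0.1)), where the added 0.1 FPKM shrinks differences of low genes. A gene is called measured when its mean over both diets was at least 1 FPKM, and lower or higher when its log2 value passed 1.5-fold. The FPKM values of all genes summed to 656248 with soy and 643145 with casein, and the number of fragments behind them is unknown. Among 1910 genes listed above 0 but below 0.1 FPKM in both libraries, 258 had a soy to casein ratio near 1.09, the most frequent one, which gives 1 fragment about 1.09 times the weight in the soy library that it has in the casein library. The tissue label matched the nephron markers, with Umod at 3662 FPKM with soy and 2842 with casein and Slc34a1 at 1044 and 907, while Pvalb was listed at 0 under both diets.

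Most chemokine and receptor genes had lower values in the soy kidney. Soy was below casein in 45 of the 50 genes, and in 10688 of the 21057 genes listed above 0 under either diet. Among genes listed above 0 under both diets, a set that leaves out Ccl11, it was below casein in 50.1%. Of the 32 measured members, 19 were at least 1.5-fold lower and 0 at least 1.5-fold higher. Over all 14077 measured genes 8.08% were lower and 3.43% higher. At least 2-fold lower were 11 of the 32, and 3.59% of all measured genes. The median log2 value was -0.80 for measured members and 0.01 for all measured genes. In 4 measured members, Ccl17, Ccl9, Cxcl6 and Ccr7, the soy value was below 1 FPKM and the casein value carried them over the limit, so these counts describe the measured members and not the family. When genes under 1 FPKM were counted too, 27 of the 50 were lower and 1, Ccl26, was higher. No share over all genes was computed without the 1 FPKM limit, so these counts have none beside them. In bulk kidney RNA, fewer cells of a type and less RNA per cell cannot be told apart.

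**Figure D1:**
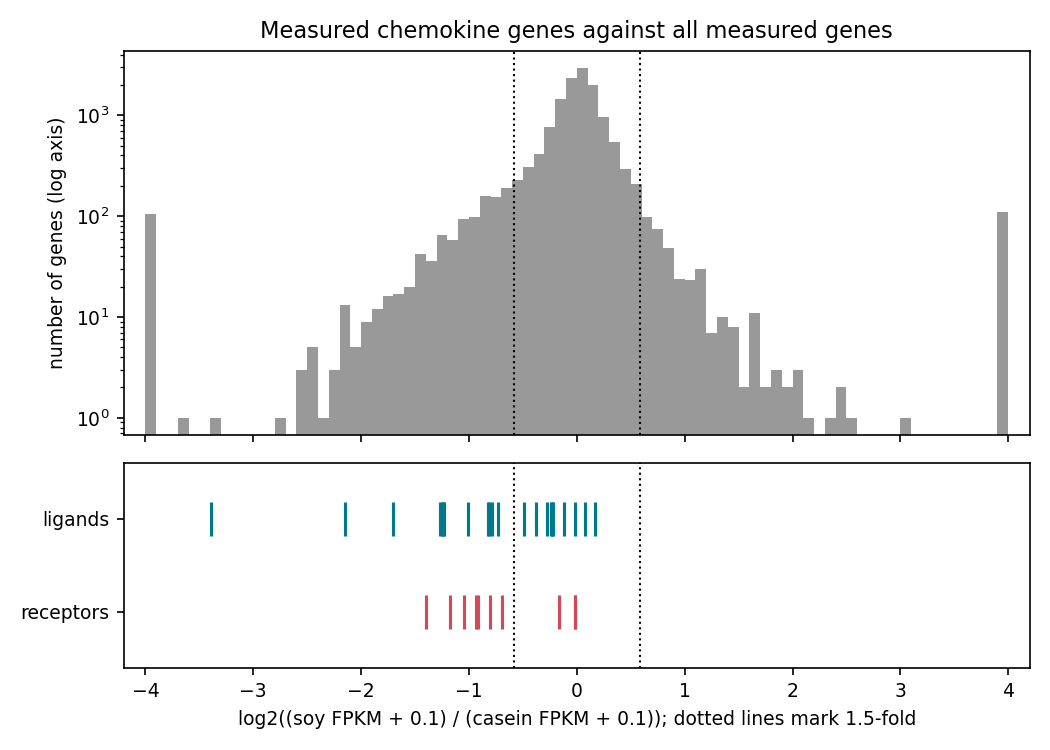
The upper panel counts all 14077 measured genes by log2 value (log count axis, values beyond 4 in either direction drawn in the end bins), and the lower panel marks each measured ligand and receptor, with dotted lines at 1.5-fold. Of the 22 ligands 12 and of the 10 receptors 7 lie left of the lower line, and none lies right of the upper line.

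The authors' deposited table gives 45 of the 50 genes a completed test, and 5 of these (11.1%) had q under 0.05, all lower with soy. Of the 17450 genes with a completed test in the authors' deposited table, 0.745% were called lower and 0.103% higher. The 5 called genes are all CC ligands, namely Ccl21 (q = 0.000157), Ccl5 (q = 0.000546), Ccl17 (q = 0.00938), Ccl19 (q = 0.0158) and Ccl22 (q = 0.0307) in the authors' deposited table. No receptor was called there, and the lowest q of a receptor in the authors' deposited table was 0.0728, for Ccr6. An unadjusted p under 0.05 stood in the authors' deposited table for 19 members (42.2%), 11 ligands and 8 receptors, all lower with soy, where 5.23% of all genes with a completed test had one and were lower. How many libraries stood behind those p and q values is unstated, and with 1 library per diet in the labels they do not measure spread between rats.

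The ligand genes together had 288 FPKM with soy and 506 with casein, 1.76-fold lower. A few genes carried most of this sum, and the leading 5 were the same genes in both libraries, with 70.05% of it under soy and 73.03% under casein. Cxcl16, a membrane-bound chemokine that is also a scavenger receptor, ranked first in both. Cx3cl1, the membrane-bound fractalkine, ranked 2 with soy and 5 with casein. The 5 ligands called in the authors' deposited table accounted for 62.8% of the difference between the sums and Cxcl16 for another 20.04%. These 5 were called for their difference between the same libraries, so their large share and the milder remainder follow in part from that choice. The 27 other ligands summed to 207 FPKM with soy and 288 with casein, 1.39-fold lower, and to 141 and 178 without Cxcl16.

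**Figure D2:**
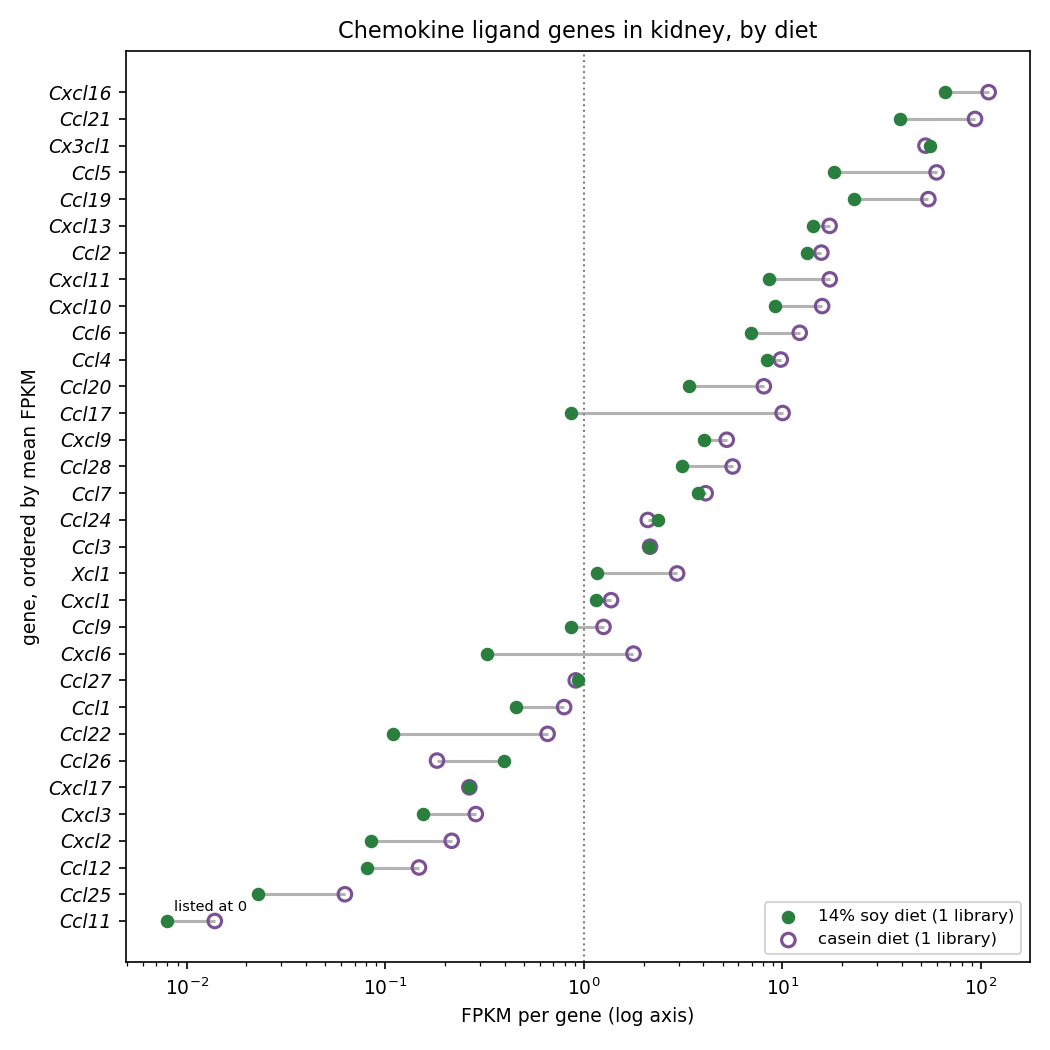
Each row is 1 of the 32 ligand genes, with FPKM on a log axis, a filled point for the soy library and an open point for the casein library, and a dotted line at 1 FPKM. Ccl11, listed at 0 with soy, is drawn at the left edge; the longest connecting lines belong to Ccl17, Ccl22 and Cxcl6, and Cx3cl1 is the most abundant ligand with the soy point on the right.

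Promoter sequences are shown for 6 ligands that stand for the patterns described below. They are Ccl17 and Ccl19, which were lower, Cxcl10 and Cxcl11, neighbours that were both lower, and Cxcl1 and Cxcl6, which attract neutrophils and differed in size of change. Each is the 250 bases before the gene's start, 5′ to 3′ along the gene, from RefSeq on build GRCr8, and capitals mark any match to the searched motifs.
Ccl17, chr19:10209896-10210145, minus strand: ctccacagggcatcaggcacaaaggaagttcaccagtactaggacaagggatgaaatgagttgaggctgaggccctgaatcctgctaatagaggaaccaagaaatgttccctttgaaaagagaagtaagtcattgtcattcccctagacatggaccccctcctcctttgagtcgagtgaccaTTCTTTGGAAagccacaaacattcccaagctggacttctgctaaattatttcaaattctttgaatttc
Ccl19, chr5:61761165-61761414, minus strand: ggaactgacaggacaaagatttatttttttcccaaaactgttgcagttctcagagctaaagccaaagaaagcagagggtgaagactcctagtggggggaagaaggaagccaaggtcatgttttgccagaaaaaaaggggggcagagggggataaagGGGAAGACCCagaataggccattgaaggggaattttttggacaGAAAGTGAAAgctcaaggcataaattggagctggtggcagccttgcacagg
Cxcl10, chr14:15988816-15989065, plus strand: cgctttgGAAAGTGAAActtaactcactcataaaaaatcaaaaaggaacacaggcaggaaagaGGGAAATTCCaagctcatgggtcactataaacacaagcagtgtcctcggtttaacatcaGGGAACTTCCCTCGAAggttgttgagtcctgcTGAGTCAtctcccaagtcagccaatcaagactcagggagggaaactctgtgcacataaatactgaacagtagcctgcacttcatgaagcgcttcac
Cxcl11, chr14:15973478-15973727, plus strand: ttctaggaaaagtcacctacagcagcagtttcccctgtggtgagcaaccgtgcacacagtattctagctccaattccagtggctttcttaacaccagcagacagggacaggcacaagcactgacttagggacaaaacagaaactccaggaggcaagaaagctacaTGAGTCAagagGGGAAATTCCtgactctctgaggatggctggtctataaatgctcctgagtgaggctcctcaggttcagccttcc
Cxcl1, chr14:17479322-17479571, minus strand: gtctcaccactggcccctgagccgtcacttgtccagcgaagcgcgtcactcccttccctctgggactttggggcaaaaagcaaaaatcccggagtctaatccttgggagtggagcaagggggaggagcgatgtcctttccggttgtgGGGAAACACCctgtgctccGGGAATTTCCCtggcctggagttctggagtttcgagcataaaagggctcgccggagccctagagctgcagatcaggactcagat
Cxcl6, chr14:17596418-17596667, minus strand: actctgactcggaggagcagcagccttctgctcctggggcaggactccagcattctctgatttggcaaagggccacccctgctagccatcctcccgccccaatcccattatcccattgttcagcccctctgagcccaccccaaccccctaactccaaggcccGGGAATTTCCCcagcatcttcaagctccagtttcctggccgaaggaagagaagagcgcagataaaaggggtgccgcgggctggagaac

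The motifs searched on both strands were GGGANNNNCC for NF-kB, GAAANNGAAA for interferon regulatory factors, TTCNNNNGAA for STAT6 and TGANTCA for AP-1. Windows were found for 37 of the 50 genes, Cxcr7 under its current name Ackr3. The NF-kB letters stood in 16 of these 37 (43.2%) and in 16.4% of all 33469 promoter windows, and the AP-1 letters in 6 (16.2%) and 6.34%. The STAT6 letters stood in 2 (5.41%) and 6.25%, and the interferon letters in 2, Ccl19 and Cxcl10, which is 5.41% against 3.41%. Among measured members with a window, the NF-kB letters stood in 6 of the 16 that were lower with soy and in 5 of the 8 within 1.5-fold. In Cxcl10 an NF-kB match and the STAT6 match overlap, and in Cxcl1 and Cxcl6 both strands match at the same place. All windows printed above hold a match, whereas those of the abundant ligands Cxcl16, Ccl21 and Cx3cl1, not printed, hold none. A match describes letters in such a window and does not show that a factor bound there.

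Of 17 measured inflammatory ligands 8 were lower (median log2 -0.49). Of 6 measured homeostatic, lymphoid and barrier ligands, 4 were lower (median log2 -1.03), and of all measured genes 8.08%. These 6 were Ccl17, Ccl19, Ccl21, Ccl28, Cxcl12 and Cxcl13. The summed FPKM of the groups did not keep this order, at 1.57-fold lower for the inflammatory ligands and 1.51-fold for the others, a sum that holds Cxcl12. Among the homeostatic ones, the T cell and dendritic cell attractants of lymphoid tissue had lower values with soy. Ccl21, which guides Ccr7-bearing cells along lymphatic vessels, had 39.2 FPKM with soy and 93.4 with casein, 2.39-fold lower. Its neighbour Ccl19, the other Ccr7 ligand, had 23.0 and 54.4 FPKM and was 2.36-fold lower, so the pair kept nearly the same ratio to each other in both libraries. Their receptor Ccr7, carried by naive T cells and migrating dendritic cells, had 0.521 FPKM with soy and 1.53 with casein, 2.95-fold lower. Cxcl13, which draws Cxcr5-bearing B cells into follicles, was closer in level, at 14.2 FPKM with soy and 17.3 with casein, 1.22-fold lower. Its receptor Cxcr5 had 1.67 and 1.70 FPKM, 1.02-fold lower. The Cxcl13 and Cxcr5 values thus lay within 1.5-fold while those of Ccl19, Ccl21 and Ccr7 did not.

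Ccl17, made by dendritic cells and macrophages and a ligand of Ccr4 on T helper and regulatory T cells, had the lowest log2 value of the measured members. It stood at 0.865 FPKM with soy and 10.03 with casein, 11.6-fold lower, with a log2 value of -3.39. Ccl22, the other Ccr4 ligand, was a low gene with 0.109 FPKM with soy and 0.657 with casein, 6.04-fold lower. Ccr4 itself was low, with 0.159 and 0.420 FPKM, 2.64-fold lower. All 3 genes of this axis were lower, and only Ccl17 reached a mean of 1 FPKM.

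Among attractants of effector lymphocytes, Ccl5, which T cells and natural killer cells make and which binds Ccr1 and Ccr3, had 18.3 FPKM with soy and 59.8 with casein, 3.27-fold lower. Xcl1, a product of cytotoxic lymphocytes that attracts cross-presenting dendritic cells, had 1.17 and 2.95 FPKM, 2.52-fold lower. Its receptor Xcr1 had 0.390 FPKM with soy and 0.955 with casein, 2.45-fold lower. Both genes of this ligand and receptor pair were thus lower by similar folds. The interferon-inducible ligands of Cxcr3 were lower to unequal degrees. Cxcl11 had 8.57 FPKM with soy and 17.3 with casein, 2.02-fold lower. Cxcl10 had 9.15 and 15.9 FPKM, 1.73-fold lower. Cxcl9 had 4.013 and 5.25 FPKM, 1.31-fold lower, the only ligand of the 3 within 1.5-fold. The deposited table gives Cxcl10 and Cxcl11 1 shared interval with Art3, so fragments could have been divided between them. Cxcr3, carried by effector T cells, had 2.65 FPKM with soy and 5.10 with casein, 1.92-fold lower.

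Cxcl16 had 65.8 FPKM with soy and 109 with casein, 1.66-fold lower, and shares its deposited interval with Zmynd15 (1.54 and 2.26 FPKM). Its receptor Cxcr6, found on tissue T cells and natural killer cells, had 1.95 and 4.14 FPKM, 2.13-fold lower. The interval of Cxcr6 is shared with Fyco1 (9.45 and 9.37 FPKM) and a row without a symbol (26.2 and 28.6 FPKM). The unadjusted p of Cxcr6 in the authors' deposited table was 0.46, so its fold is uncertain there. Ccl20, which draws Ccr6-bearing T helper 17 cells and B cells, had 3.38 FPKM with soy and 8.07 with casein, 2.39-fold lower. Ccr6 had 0.345 FPKM with soy and 1.39 with casein, and its 4.02-fold difference was the largest among the 18 receptors. In both of these pairs the receptor differed by a larger fold than the ligand. Ccl28, an epithelial chemokine of mucosal surfaces, had 3.12 and 5.62 FPKM, 1.80-fold lower, whereas its receptor Ccr10 had 5.74 and 5.82 FPKM. Ccl27, the other Ccr10 ligand, had 0.937 FPKM with soy and 0.911 with casein and shares its deposited interval with Il11ra1.

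The classical monocyte attractants lay close together in the 2 libraries. Ccl2, monocyte chemoattractant protein 1, had 13.4 FPKM with soy and 15.7 with casein, 1.18-fold lower. Ccl7, the related Ccr2 ligand, had 3.77 and 4.11 FPKM, 1.09-fold lower. Their receptor Ccr2, which marks inflammatory monocytes, had 1.76 FPKM with soy and 4.099 with casein, 2.33-fold lower, so the receptor passed 1.5-fold and these ligands did not. Ccl3 and Ccl4, the macrophage inflammatory proteins, had 2.13 and 8.40 FPKM with soy and 2.16 and 9.82 with casein. Both lay within 1.5-fold, with log2 values of -0.02 for Ccl3 and -0.22 for Ccl4.

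Ccl6 and Ccl9 are macrophage chemokines known from rodents. Ccl6 was 1.76-fold lower at 6.93 FPKM with soy and 12.2 with casein, and Ccl9 1.46-fold lower at 0.863 and 1.26 FPKM. Ccr1, the shared receptor of Ccl3, Ccl5 and several others on monocytes and neutrophils, had 0.419 FPKM with soy and 1.13 with casein, 2.70-fold lower. Cx3cl1 was the one abundant ligand whose soy value was the higher, at 55.6 FPKM with soy and 52.6 with casein, a 1.06-fold difference. Cx3cr1, its receptor on resident macrophages, patrolling monocytes and cytotoxic lymphocytes, had 3.99 FPKM with soy and 7.69 with casein, 1.93-fold lower. The receptor of this pair was thus lower past 1.5-fold, while the ligand lay within 1.5-fold with a slightly higher soy value.

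**Figure D3:**
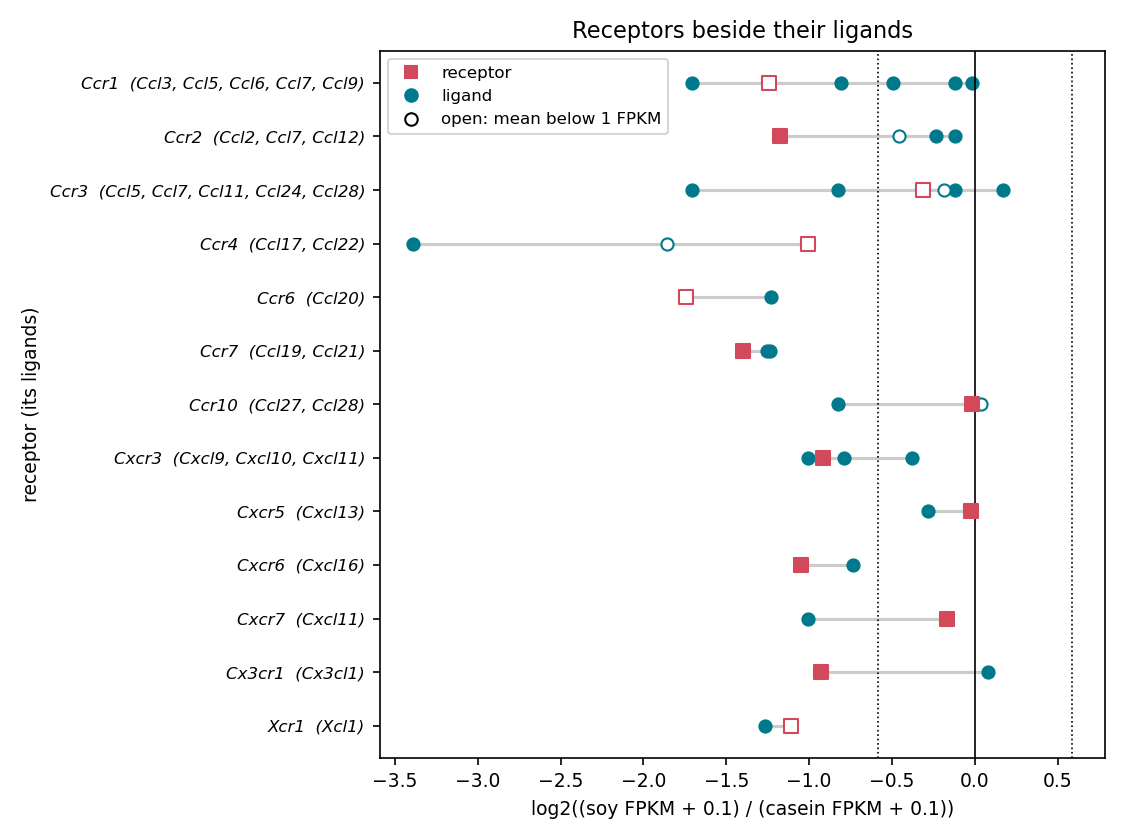
Each row is a receptor (square) with its ligands in brackets (circles), placed by log2 of soy over casein; open symbols have a mean below 1 FPKM and dotted lines mark 1.5-fold. Ccr7 (-1.40) lies close to Ccl19 (-1.24) and Ccl21 (-1.25), whereas Ccr2 (-1.18) and Cx3cr1 (-0.93) lie past 1.5-fold and their measured ligands do not.

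The neutrophil attractants had low levels. Cxcl1, known in rats as cytokine-induced neutrophil chemoattractant 1, had 1.15 FPKM with soy and 1.37 with casein, 1.19-fold lower. Cxcl6 had 0.324 and 1.78 FPKM, 5.49-fold lower, the second lowest log2 value of the measured members at -2.15. The promoter windows of both, printed above, hold the NF-kB letters GGGAATTTCC, from -84 to -75 in Cxcl1 and from -88 to -79 in Cxcl6. Cxcl2 had 0.0848 FPKM with soy and 0.216 with casein, and Cxcl3 0.155 and 0.286. Their receptor Cxcr2, listed in the table as Il8rb and outside the naming rule, had 0.101 FPKM with soy and 0.250 with casein.

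The eosinophil attractants were low in both libraries, and 2 of them had the higher value with soy. Ccl24, also called eotaxin 2, had 2.37 FPKM with soy and 2.10 with casein. Ccl26, eotaxin 3, had 0.397 and 0.182 FPKM, 2.18-fold higher, the highest log2 value of all 50 genes at 0.82, at a level below 1 FPKM. Ccl11, the first eotaxin, was listed at 0 with soy and at 0.0139 FPKM with casein. Their receptor Ccr3 had 0.108 and 0.158 FPKM in an interval shared with Tarbp2.

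The most abundant receptor was Cxcr7, with 18.7 FPKM with soy and 20.98 with casein, 1.12-fold lower. Cxcr4, the signalling receptor of Cxcl12 on leukocytes, had 4.21 FPKM with soy and 7.43 with casein, 1.77-fold lower. The authors' deposited table of transcripts calls 1 Cxcr4 transcript (q = 0.0181), listed at 0 with soy and at 3.52 FPKM with casein. The remainder of the gene's value, once this transcript is subtracted, was 4.21 FPKM with soy and 3.90 with casein. By the deposited estimate the lower value of Cxcr4 lay in this transcript and not in the remainder, known only by subtraction. Only transcripts marked significant by the authors are listed, and the 0 with soy can be a failed estimate. Cxcl12, listed under the protein entry F1LS07_RAT and so outside the naming rule, had 118 FPKM with soy and 119 with casein, above each of the 32 ligands of the naming rule in both libraries. The 5 ligands called at gene level each have a transcript with the gene's own FPKM values in that table.

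**Figure D4:**
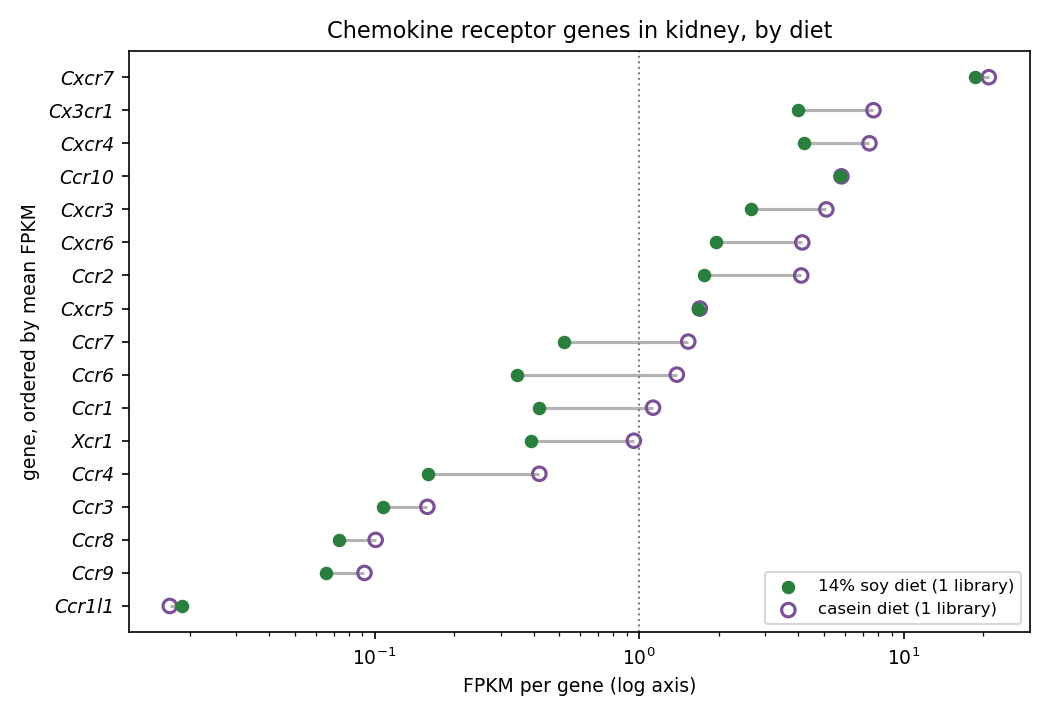
Each row is 1 of 17 receptor genes, with FPKM on a log axis, a filled point for the soy library and an open point for the casein library, and a dotted line at 1 FPKM. The soy point lies left of the casein point in 16 of the 17, and the points nearly coincide for Ccr10 and Cxcr5.

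Of the 50 genes, 18 had a mean below 1 FPKM, with values from 0 to 1.39 FPKM, and 15 of them were lower with soy by value. Over all genes listed above 0 under either diet, at any level, this held for 10688 of 21057. Those not described above were Ccl1 (0.456 FPKM with soy, 0.796 with casein), Cxcl17 (0.265 under both diets), Ccl12 (0.0808 and 0.148) and Ccl25 (0.0229 and 0.0626). The receptors Ccr8 (0.0734 with soy, 0.101 with casein), Ccr9 (0.0655 and 0.0916) and Ccr1l1, a Ccr1-like gene of rodents (0.0187 and 0.0168), were the lowest of their class. For genes at this level the values may rest on few fragments, and the authors' deposited table gives Ccl11, Ccl25, Ccr1l1, Ccr8 and Ccr9 no test.

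Chemokine genes lie in clusters, and neighbours had similar values in some clusters and different ones in others. Clusters were defined from the deposited coordinates, for which no source used here names a build, as members less than 500 kb apart. On chromosome 19 Ccl17 (10641375 to 10642827) and Ccl22 (10697323 to 10704129) were 11.6-fold and 6.04-fold lower, and Cx3cl1 (10666934 to 10676425), which lies between them, was 1.06-fold higher. On chromosome 5 Ccl19 (59221737 to 59223682) and Ccl21 (59238898 to 59240001) were lower by nearly equal folds, and Ccl27 beside them had a log2 value of 0.04. On chromosome 10 the cluster of Ccl5, Ccl9, Ccl6, Ccl3 and Ccl4 ran from -1.71 for Ccl5 to -0.02 for Ccl3, and the cluster of Ccl2, Ccl7, Ccl11, Ccl12 and Ccl1 held no measured gene past 1.5-fold. On chromosome 14 Cxcl6 had -2.15 and Cxcl1 -0.24 within the same cluster. In the chromosome 8 receptor cluster the measured genes Cxcr6 and Ccr2 were lower, with log2 values of -1.05 and -1.18.

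**Figure D5:**
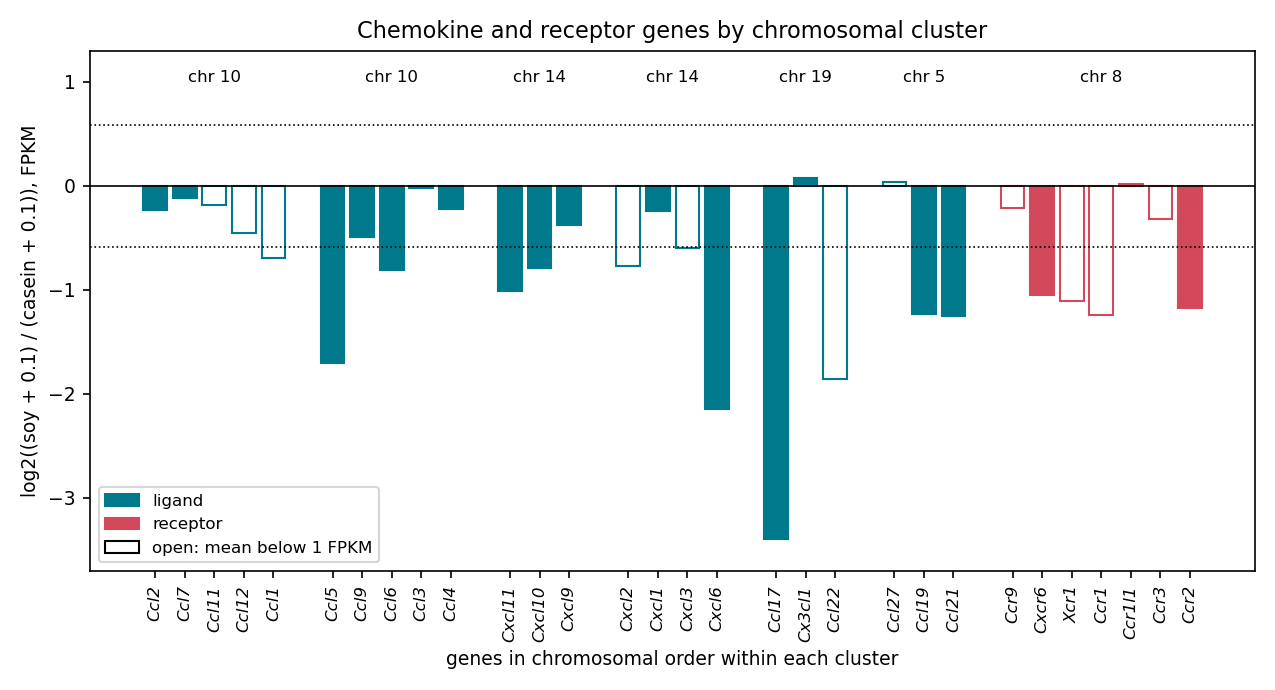
Bars give log2 of soy over casein for members in clusters of at least 3 genes, in chromosomal order; open bars have a mean below 1 FPKM and dotted lines mark 1.5-fold. On chromosome 19 the bar of Cx3cl1 (0.08) stands between those of Ccl17 (-3.39) and Ccl22 (-1.86).

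Genes around the chemokine system were described with lists of adhesion, signalling, processing and inducing genes. Beside the counts of these lists and of the marker lists below stand 8.08% lower and 3.43% higher over all 14077 measured genes. Of 12 measured adhesion partners of leukocyte arrest, 7 were at least 1.5-fold lower and 0 higher (median log2 -0.73). Itgb7, an integrin chain of gut-homing lymphocytes, had 1.46 FPKM with soy and 3.83 with casein, and Itgal, the lymphocyte integrin that binds Icam1, 2.38 and 5.46. Itgam, the myeloid integrin chain, had 0.829 and 2.14 FPKM, and Selplg, the selectin ligand, 6.005 and 13.3. Of 20 measured genes of chemokine receptor signalling, 8 were lower and 0 higher (median log2 -0.27). The kinase Fgr (2.38 FPKM with soy, 5.21 with casein), the regulatory subunit Pik3r5 (0.768 and 1.83) and the GTPase Rac2 (13.8 and 32.1) were at least 2-fold lower.

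Of 10 measured genes that trim, shed or present chemokines, 1 was lower (10%, near the 8.08% of all measured genes) and 1 higher (median log2 -0.09). Mmp12, macrophage elastase, had 2.18 FPKM with soy and 6.65 with casein. Ndst1, a heparan sulphate synthesis enzyme, had 33.1 and 21.7 FPKM, and Dpp4, the peptidase that trims many chemokines, 325 and 228. Sdc1, a heparan sulphate proteoglycan, had 6.71 and 9.08. Of 7 measured inducers, 2 were lower and 0 higher (median log2 -0.40), namely Ltb, a lymphotoxin chain (4.996 FPKM with soy, 10.2 with casein), and Il1b (2.51 and 4.66). The NF-kB subunits Nfkb2 (12.5 and 17.4) and Nfkb1 (14.9 and 19.7) lay within 1.5-fold, and Il4 was listed at 0 under both diets. Of the 13 inducers found, 10 had the lower value with soy and 2 the higher. Among the latter was Ifng, a low gene with 0.175 FPKM with soy and 0.0403 with casein. Of 5 measured atypical receptors and chemokine genes outside the naming rule, which include Cxcr7 itself, only Rarres2, the chemerin gene, was lower (35.5 and 60.7 FPKM). Of the others, Pf4, platelet factor 4, had 3.90 and 5.02 FPKM and the chemerin receptor Cmklr1 2.32 and 2.66. Among genes with a completed test, the authors' deposited table calls 2 of 14 adhesion genes, 2 of 21 signalling genes and 1 of 11 processing genes, all lower with soy. It calls 0 of 10 inducers and 0 of 6 atypical receptors and chemokine genes outside the naming rule. Over all 17450 genes with a completed test, 0.745% were called lower and 0.103% higher.

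Markers of the leukocytes that make or follow chemokines were lower in the same soy library, and their part in the chemokine differences was not tested. All 10 T cell markers were measured and 9 were at least 1.5-fold lower, with a summed level of 37.2 FPKM with soy and 78.2 with casein (2.10-fold lower). All 7 measured natural killer and cytotoxic markers were lower, with sums of 14.5 and 44.1 FPKM over the 9 fixed genes (3.03-fold lower), and Klrb1 was listed at 0 with soy. Ccl5 (3.27-fold lower) and Xcl1 (2.52-fold lower) can be read beside these sums. Of 10 measured macrophage and monocyte markers 9 were lower, with sums of 571 and 1044 FPKM (1.83-fold lower), beside 2.33-fold for Ccr2 and 1.93-fold for Cx3cr1. Lyz2 alone made up most of these sums, with 334 FPKM with soy and 611 with casein. Of 7 measured dendritic cell markers, a list that holds Ccr7 and Xcr1, 6 were lower, with sums of 12.6 and 22.7 FPKM (1.80-fold lower). All 3 measured B cell and plasma cell markers were lower, with sums of 9.09 and 21.8 FPKM over 8 genes (2.40-fold lower), while Cxcl13 and Cxcr5 lay within 1.5-fold.

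Of the 7 neutrophil markers the 2 measured, S100a8 and S100a9, were lower, with sums of 2.21 FPKM with soy and 6.75 with casein, and Elane was listed at 0 under both diets and Camp with soy. The mast cell and eosinophil list had 1 measured gene, Kit, within 1.5-fold, sums of 6.16 and 7.06 FPKM, Mcpt1 at 0 under both diets and Epx at 0 with casein. Of 4 measured lymphatic endothelial markers, from a cell type that makes Ccl21, Pdpn was lower (7.01 FPKM with soy, 13.6 with casein) and Prox1 higher (2.20 and 1.06). Lyve1 had 2.50 and 2.64 FPKM and Flt4 1.70 and 1.90. The list summed to 14.3 FPKM with soy and 20.6 with casein, a difference that came mainly from Pdpn. Blood endothelial markers summed to 255 FPKM with soy and 210 with casein, with 0 of 8 lower and 1 higher. Of 7 measured fibroblast and pericyte markers 3 were lower (sums 161 and 217). Of 2 measured genes of lymph node stroma and follicular dendritic cells Fcer2 was lower and Glycam1 lay within 1.5-fold (sums 5.35 and 8.45). All 4 measured injured tubule markers had lower values with soy, 3 of them past 1.5-fold, with sums of 125 and 278 FPKM (2.21-fold lower). The proximal tubule list had 1 of 6 lower and 1 higher (sums 1673 and 1448), and the other nephron segments 0 of 6 (sums 4708 and 3693).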

How the data were processed

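Each of 2 kidney libraries, 1 from rats on 14% soy and 1 from rats on casein, has an FPKM value per gene and, for transcripts the authors marked significant, per transcript, as deposited by the authors. Per the submitters' processing notes Bowtie, TopHat and Cufflinks were used. Their versions, the genome build and the annotation release are unstated in the sources used here. The p-values and q-values per gene come from the authors' deposited tables and are printed only as theirs.

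From these values folds and log2((soy + 0.1)/(casein + 0.1)) were computed, genes whose mean reached 1 FPKM were called measured, and 1.5-fold was the limit for lower or higher. No test was run. Depth in fragments is unknown, so no interval is given, and a value of 0 can be a failed estimate. Every member is accounted for: those measured are named with both values, the rest by count and range and by name where they pair with another member, exceed 0.3 FPKM or are listed at 0 under 1 diet, and the few lowest ones were added. From the pathway lists, up to 4 measured genes with the largest log2 values are named. A few genes that these rules name are counted but not reported here. Of 235 list entries 214 were found, by symbol, by a RefSeq synonym or, for Cxcl12, by its description. The members and lists were chosen with earlier results of these data known. Alternatives were other pseudocounts, limits on the mean, centrings, fold limits and q limits, rows with a completed test, and 1 row per symbol. The tools were pandas 2.3.3 and numpy 2.4.6 under Python 3.11.15, with matplotlib 3.10.9 for the plots.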

Additional observations from a re-analysis of the deposited data

How the results depend on the processing

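No paired analysis was possible because each diet has 1 library. The count of 19 lower members among 32 became 18 with a pseudocount of 1 and 21 with a smaller fold limit. It stayed 19 with a pseudocount of 0.01 and with both centrings. Over more genes, it was 27 of 45 at a mean of at least 0.1 FPKM and 27 of 50 with no limit. It was 11 of 17 at a mean of at least 5 FPKM and 11 of 32 at a 2-fold limit. At that fold limit 3.59% of all measured genes were lower. Shares over all genes were not computed at the other limits on the mean or at the smaller fold limit. Another 3 settings could not change the count and do not test it. All 32 members already had a completed test and a symbol listed once, so keeping such rows dropped none. Leaving short RNAs out of the background does not touch a count of members. The count of higher members, 0, became 1 (Ccl26) at a mean of at least 0.1 FPKM and again 1 with no limit on low values. The median log2 of ligands, -0.76, was -0.54 with no limit on low values, and that of receptors, -0.86, was -0.49 at a mean of at least 5 FPKM, where few receptors are left. The authors' deposited table calls 3 members at q under 0.01, 6 at q under 0.1 and 19 at an unadjusted p under 0.05, where 5 are called at q under 0.05. Of 128 values for single members under other pseudocounts and centrings, 127 kept their side of 1.5-fold, and the remaining 1, lower with a pseudocount of 0.1, came inside the limit with a pseudocount of 1. Ccl3, Ccr10 and Cxcr5 changed sign when centred on housekeeping genes (median -0.06). With an unknown number of fragments, differences of genes below 1 FPKM cannot be given a precision.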
